A study of Mus musculus with 2 samples.

Results

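The genes described here encode the RGS proteins and the subunits of heterotrimeric G proteins, measured in mouse uterine stromal cells with and without Msx1 and Msx2. They were chosen by gene symbol alone, and 51 of 18193 genes on the array matched, read by 121 probe sets. Of these, 19 are RGS genes, 15 encode alpha subunits, 5 beta subunits and 11 gamma subunits. The remaining match, Gnasas1, is a noncoding antisense transcript of the Gnas locus and no subunit, and it was under the detection floor on both arrays. The 3 probe sets of Gng5 carry a pseudogene symbol as well and were not used here.

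The samples were 1 array of pooled RNA from C57BL/6 mice with floxed Msx1 and Msx2 alleles (control) and 1 array from mice in which both genes had been ablated in the uterus with PRcre, a Cre recombinase driven by the progesterone receptor locus (null). All mice were on day 4 of pregnancy after mating with fertile males. The design text gives 5 mice per genotype and the extraction protocol 4. The cells were what remained after dispase and pancreatin had loosened the epithelium and collagenase had dispersed the stroma, so no gate selected a cell type. PRcre acts in all uterine cells that express the progesterone receptor, so the loss was not limited to stroma.

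A heterotrimeric G protein couples a membrane-spanning receptor on the cell surface to enzymes and channels inside the cell. The receptor makes the alpha subunit exchange GDP for GTP, upon which alpha and the beta-gamma dimer separate and each acts on its own effectors. Alpha subunits of the Gs class stimulate adenylyl cyclase, those of the Gi class inhibit it, and those of the Gq class activate phospholipase C beta. RGS proteins speed up GTP hydrolysis on alpha subunits and so shorten the signal. In the uterus these pathways carry the responses to prostaglandins, lysophosphatidic acid, oxytocin and endothelin, and the mural cells of blood vessels are known for abundant RGS transcripts.

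MAS5 signals on a linear scale are given below in arbitrary units, and ratios are log2 values of null minus control. A gene is represented by its brightest probe set, and a signal under the median of all probe sets (31.0 for control and 30.1 for null) was raised to that floor, which makes the ratio a bound. Each value is a single measurement without replicate error, so no difference could be tested, and higher or lower refers to these arrays only. The within-gene SD of the ratio between probe sets of 1 gene was 0.29 over 4690 genes and 0.23 over the 19 members with several probe sets, which is a scale for probe noise and not for mice. On their brightest probe sets, Msx1 signal was lower by at least 52.6-fold and Msx2 signal by at least 2.12-fold without the genes. The 14 stromal fibroblast markers were all above the floor, led by Col3a1, Col1a2 and Dcn, but so were 13 of 13 epithelial, 14 of 14 endothelial and 14 of 14 macrophage markers. RNA degradation raises the 3'/5' signal ratio, which for Gapdh was 0.967 (control) and 1.28 (null) and for Actb 1.80 and 2.33.

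Of the 51 genes, 31 were above the floor on both arrays, 1 (Rgs11) in the control array only and 19 on neither. Among the 31 above it on both, 12 had positive and 19 negative ratios, with a median of -0.04. With Rgs11 the median of the 32 was -0.05, against 0.02 over all 11833 genes above the floor. Of those 11833 genes, which were above it on at least 1 array, 6185 had positive and 5648 negative ratios. On that same filter the 32 members had 12 positive and 20 negative ratios. The gamma subunit gene Gngt2 was the single member past 2-fold lower (3.13% of 32, where the background was 1.8% of all genes), and 0 members were past 2-fold higher (background 1.59%). At 1.5-fold, Gngt2, Rgs4, Gng12 and Rgs16 were lower (12.5%, background 6.92%) and Rgs3 was higher (3.13%, background 6.79%). Rgs16 fell short of 1.5-fold with the arrays centred (-0.577), with quantile normalization (-0.5848, where 1.5-fold is -0.5850) and with the median over probe sets (-0.42), in which Rgs5 passed it instead, at -0.78, and Rgs3 did not. With so few members these shares differ from the background by a handful of genes.

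**Figure D1:**
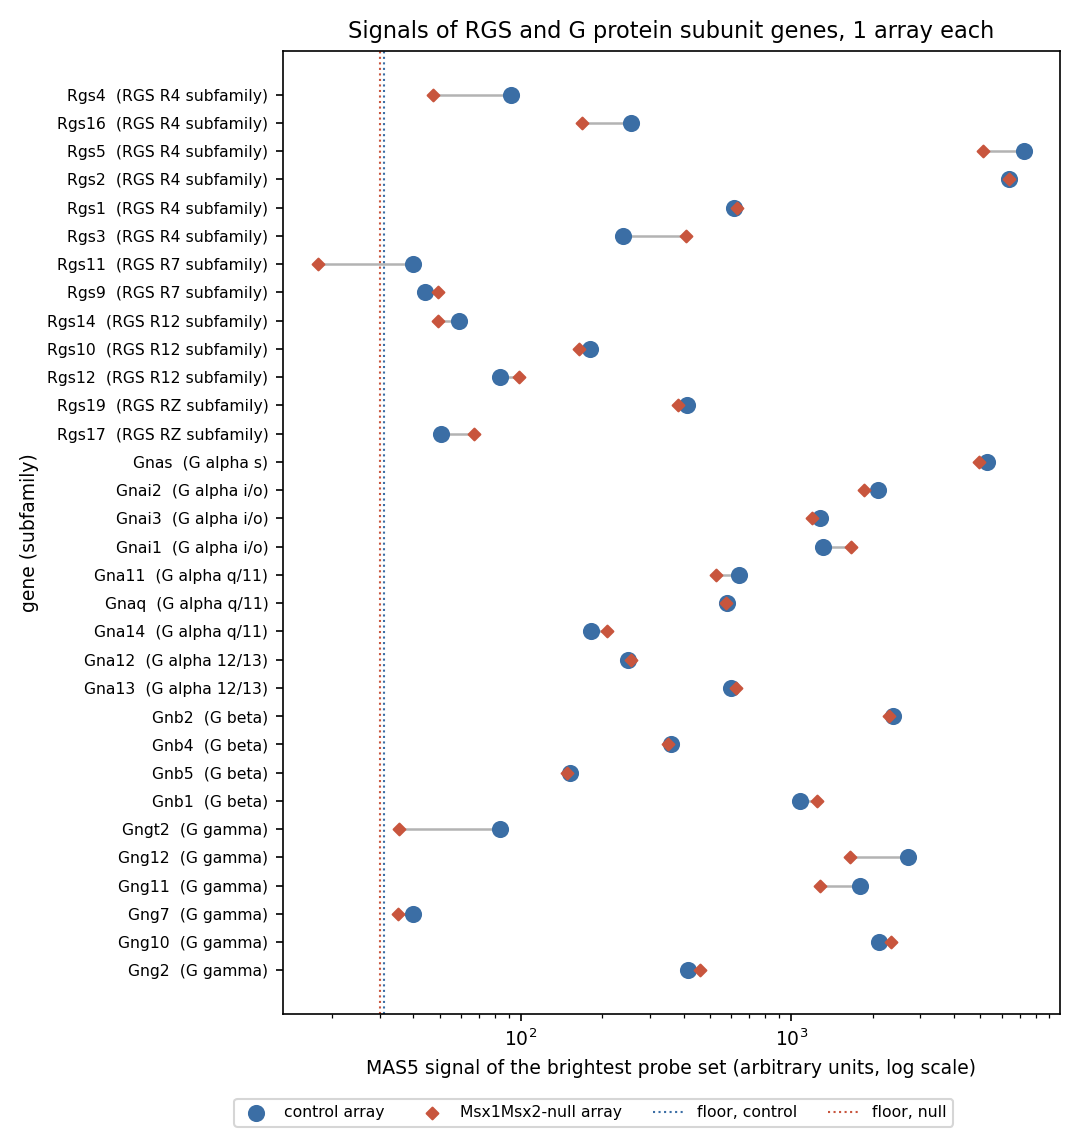
MAS5 signal (log axis) of the brightest probe set of each of the 32 genes above the floor, in the control array (circles) and the null array (diamonds); dotted lines mark the floors. Most pairs lie close together, while Rgs4, Rgs16, Rgs5, Gngt2, Gng12 and Gng11 lie lower and Rgs3 higher in the null array, and the null value of Rgs11 is under the floor.

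The R4 subfamily, the small RGS proteins made of little more than the RGS domain, held the widest differences among the RGS genes above the floor on both arrays. Rgs5, a regulator of Gi and Gq signalling that is widely used as a marker of pericytes, went from a signal of 7277 (control) to 5125 (null) on its brightest probe set, a log2 ratio of -0.51. Its other probe sets went from 1607 to 957, from 836 to 474 and from 884 to 399, with ratios of -0.75, -0.82 and -1.15. All 4 were thus lower in the null array, the brightest by the least, and the other 3 derive from a single source sequence. Rgs4, which acts on the same alpha subunit classes, was dim, with 92.0 and 47.1 on its brightest probe set (1.95-fold lower) and 65.4 and 34.8 on a second probe set, a ratio of -0.91. Its remaining probe set was under the floor on both arrays. Raising the floor to the 65th percentile, the ratio of Rgs4 shrank from -0.97 to a bound of -0.18, so its size rests on signals near the detection limit. Rgs16 went from 255 to 169, 1.51-fold lower, and its second probe set from 165 to 139, a ratio of -0.24.

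Rgs5 and Rgs4 are adjacent protein-coding genes in the RefSeq annotation, and they are transcribed towards each other from opposite strands. Since these neighbours and Rgs16 were all lower in the null array, their upstream sequences are shown, as RefSeq gives them for GRCm38.p6. Each is the 250 bases before the annotated start, 5' to 3' on the gene's strand, at chr1:169655251-169655500 on the plus strand for Rgs5, chr1:169747643-169747892 on the minus strand for Rgs4 and chr1:153740103-153740352 on the plus strand for Rgs16. Capitals mark every match on either strand to TAATTG (a core bound by Msx homeodomains), TATAAA (the TATA box), GGGCGG (the GC box) or CCAAT (the CCAAT box).
Rgs5: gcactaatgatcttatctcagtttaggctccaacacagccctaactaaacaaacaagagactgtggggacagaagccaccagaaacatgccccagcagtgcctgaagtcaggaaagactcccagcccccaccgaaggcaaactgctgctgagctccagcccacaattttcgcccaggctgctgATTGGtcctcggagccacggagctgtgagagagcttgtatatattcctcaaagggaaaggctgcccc
Rgs4: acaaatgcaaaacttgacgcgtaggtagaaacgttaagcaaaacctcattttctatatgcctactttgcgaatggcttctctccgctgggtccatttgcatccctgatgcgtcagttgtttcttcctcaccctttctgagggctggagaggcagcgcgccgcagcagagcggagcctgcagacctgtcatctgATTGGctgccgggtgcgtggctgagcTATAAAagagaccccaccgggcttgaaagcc
Rgs16: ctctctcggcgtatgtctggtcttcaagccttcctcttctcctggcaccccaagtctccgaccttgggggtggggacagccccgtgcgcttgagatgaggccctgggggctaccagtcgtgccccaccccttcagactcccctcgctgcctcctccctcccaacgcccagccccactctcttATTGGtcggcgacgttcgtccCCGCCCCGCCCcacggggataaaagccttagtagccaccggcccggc
The Rgs5 window held a CCAAT box, beginning 67 bases before the start and read on the opposite strand, and no other match. Rgs4 held a TATAAA match 31 bases before its start and an inverted CCAAT match at 57 bases. Rgs16 held an inverted CCAAT match at 68 bases and a pair of overlapping inverted GGGCGG matches at 47 and 42 bases. TAATTG occurred in 0 of the 3 windows, and in 0 of the 25 members above the floor that had a sequence, against 7.17% of all 32851 promoter windows of this length. TATAAA was present in 5, CCAAT in 8 and GGGCGG in 18 of those 25 genes in at least 1 of their windows, against 12.4%, 33.8% and 32.7% of all windows. Counted by window over all members with a sequence, TATAAA was in 9 of 50, CCAAT in 13 and GGGCGG in 24. TAATTG was in 2 of the 50, those of Gnat2 and Rgs6, which were both under the floor. A gene with several annotated starts has several windows, so the counts over genes and the shares of windows are not on the same footing, and a match is only a match of letters.

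Among the other measured R4 genes, Rgs3 was higher and Rgs1 and Rgs2 were nearly level. Rgs3, a longer member that has several isoforms and also acts on Gi and Gq, went from 238 to 408 on its brightest probe set, 1.71-fold higher. Its other probe sets above the floor went from 130 to 164 and from 62.4 to 67.9, with ratios of 0.34 and 0.12. The direction was shared by all 3, but the size was not, and the median over its probe sets was 0.34. Rgs2, which prefers Gq and is induced by many hormones, had 6402 and 6368 on its brightest probe set, a ratio of -0.01, while the others gave 0.26, -0.11 and -0.10. Rgs1, a leukocyte member that dampens chemokine receptor signalling, had 611 and 631, a ratio of 0.05. Rgs8, Rgs13 and Rgs18 were under the floor on both arrays. Of the 6 measured R4 genes, 2 had positive and 4 negative ratios, with a median of -0.26, and the ratio of Rgs2 turned positive when the arrays were centred or quantile normalized.

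Immediate early and heat shock genes are a reference for Rgs1, Rgs2 and Rgs16, which are themselves induced quickly by stimulation and by tissue digestion. In that list 21 of 23 genes were lower in the null array, 4 of them past 2-fold. Over all 11833 genes above the floor, 5648 were lower and 1.8% were past 2-fold lower. The median of the list was -0.50 and its summed signal was 60911 (control) and 45300 (null). The 4 past 2-fold were Egr3, Atf3, Egr2 and Gadd45b, at -1.51, -1.35, -1.16 and -1.14. Rgs16 had the sign of that list, whereas Rgs1 and Rgs2 were at nearly equal signal on both arrays. Whether digestion had a part in the values of that list or of Rgs16 was not tested.

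In the remaining RGS subfamilies 0 genes reached 1.5-fold in either direction, the value of Rgs11 being a bound. In the R12 subfamily, Rgs12 and Rgs14, which carry a second Gi-binding motif outside the RGS domain, went from 83.4 to 98.4 and from 59.0 to 49.4, and Rgs10 from 179 to 164. In the RZ subfamily, Rgs19 went from 411 to 381, with its second probe set at 0.05, and Rgs17 from 50.6 to 67.1, a ratio of 0.41. The R7 subfamily, whose members work as stable dimers with the beta subunit Gnb5 and are best known from neurons and photoreceptors, was barely detectable. Rgs9 had 44.3 and 49.2 on 1 probe set, Rgs11 went from 40.0 to 17.8 (at least 1.33-fold lower), and Rgs6 and Rgs7 were under the floor. Rgs11 passed the filter only through the array in which it was high, so its direction followed from the filter. Rgs20 of the RZ subfamily was under the floor as well.

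**Figure D2:**
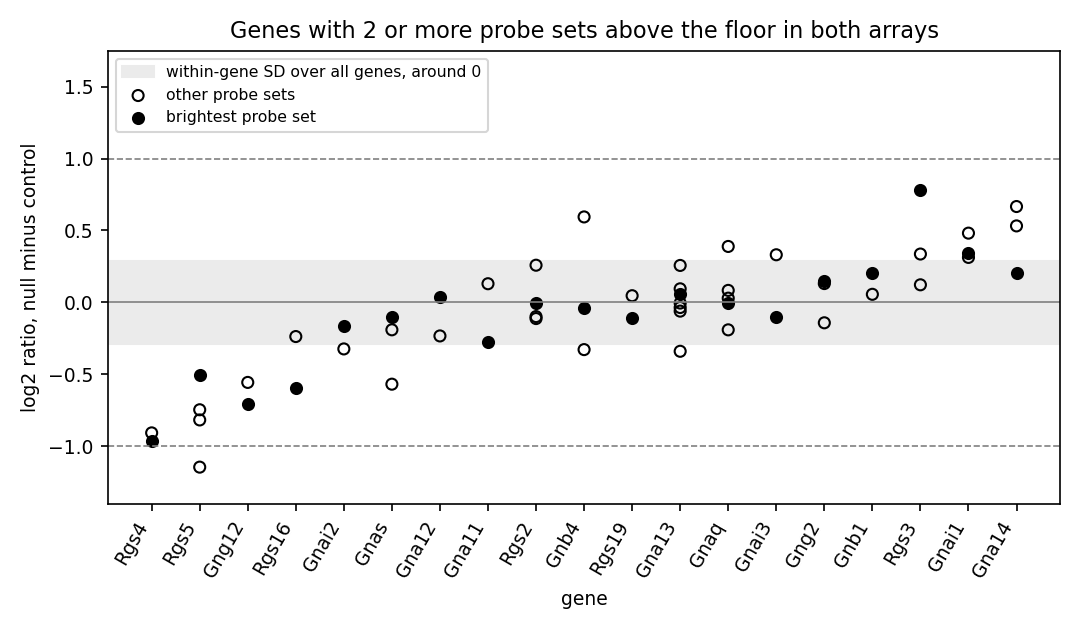
Log2 ratio (null minus control) of every probe set above the floor on both arrays, for the 19 genes with 2 or more of them, ordered by their median; filled points are the brightest probe set, dashed lines 2-fold, and the band 0.29 on either side of 0. All probe sets of Rgs4, Rgs5, Gng12 and Rgs16 lie below 0 and all of Rgs3, Gnai1 and Gna14 above it, whereas those of Rgs2, Gnb4, Gna13 and Gnaq lie on both sides.

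Among alpha subunits no gene reached 1.5-fold, and the class that inhibits adenylyl cyclase split by gene. Gnai1 went from 1305 to 1658 on its brightest probe set, from 419 to 584 on the second and from 108 to 134 on the last, ratios of 0.35, 0.48 and 0.31. Gnai2, a widely expressed Gi subunit that is prominent in leukocytes, went the other way on both probe sets, from 2087 to 1860 and from 1439 to 1149, ratios of -0.17 and -0.32. Gnai3 went from 1276 to 1188, a ratio of -0.10, and its dim second probe set gave 0.33. The ratios of Gnai1 were thus higher than those of Gnai2 on every probe set, though most are near the probe noise of 0.29. Gnas, the subunit that stimulates adenylyl cyclase and that is encoded by an imprinted locus, had 5281 and 4924, a ratio of -0.10. A pair of dim probe sets gave -0.19 and -0.57, and the remaining 2 were under the floor.

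In the Gq class, Gna14 was higher on all 3 probe sets, going from 181 to 209, from 79.0 to 114 and from 67.8 to 108, with ratios of 0.20, 0.53 and 0.67. Its median over probe sets was 0.53, against 0.20 on the brightest. Gnaq, its neighbour on the chromosome with no protein-coding gene between them, had 576 and 574, with 3 of 5 probe sets positive and ratios from -0.19 to 0.39. Gna11 went from 640 to 528 on its brightest probe set and from 356 to 389 on the second, so its probe sets disagreed in sign. Gna12 and Gna13, which form a class of their own, had ratios of 0.03 and 0.06, and the 7 probe sets of Gna13 ran from -0.34 to 0.26, 4 of them negative. For Gna12, Gna13, Gnai3 and Gnaq the median over probe sets had the opposite sign to the brightest one, which puts no direction on them.

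The beta subunits were nearly level. Gnb1 went from 1076 to 1240 and, on its second probe set, from 916 to 952, ratios of 0.21 and 0.06. Gnb2 went from 2376 to 2291 and Gnb5, the beta subunit that pairs with the R7 RGS proteins, from 152 to 148. Gnb4 went from 360 to 350, and its dimmer probe sets disagreed, at -0.33 and 0.59. The median of the 4 was -0.04.

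The gamma subunits, small lipid-anchored proteins that hold the beta subunit at the membrane, showed more spread than the beta subunits. Gngt2, the gamma subunit of cone photoreceptors that is also found in leukocytes, went from 83.8 to 35.5 on its only probe set, 2.36-fold lower. That null signal lies just above the floor, and under the higher floor the ratio was a bound of -0.05, so the 2-fold call does not hold there. Gng12 went from 2700 to 1654 on its brightest probe set, 1.63-fold lower, and from 1509 to 1025 on the second, a ratio of -0.56. Gng11, a farnesylated gamma subunit, went from 1795 to 1279, 1.40-fold lower, on 1 probe set. Gng10 went from 2101 to 2327, a ratio of 0.15. Gng2 went from 414 to 460 on its brightest probe set, also 0.15, but its other probe sets above the floor gave 0.13 and -0.14 and so disagreed in sign. Gng7 was dim, at 39.9 and 35.0. Gng12 and Gng11 thus differed at signals well above the floor, whereas the null signals of Gngt2 and Gng7 lay close to it. The median of the 6 measured gamma subunits was -0.34.

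The sign of the ratio was the same on all probe sets of 10 of the 19 genes that had several above the floor on both arrays. It was negative throughout in 6 of them (31.6%, background 28.3%) and positive throughout in 4 (21.1%, background 25.4%). Rgs4 alone was at least 1.5-fold lower on all of them, and 0 genes were at least 1.5-fold higher on all, where 2.37% and 1.51% of all genes with several probe sets were.

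Markers of vessel cells and macrophages were lower in the same array as Rgs5, Rgs4, Gng11, Gng12 and Gngt2. For scale, 5648 of all 11833 genes above the floor were lower in that array. Of 9 pericyte markers, a list that left out Rgs5, 8 were lower, while Cspg4 went from 104 to 112, a ratio of 0.10. The median of the 9 was -0.50, and their summed signal was 5194 (control) and 3722 (null). The brightest were Pdgfrb, Des and Anpep, and Pdgfrb, a growth factor receptor of pericytes that fibroblasts and other stromal cells carry too, went from 1490 to 1188. The Rgs5 ratio of -0.51 on the brightest probe set was close to that median, and the other 3 were lower than it. All 14 endothelial markers were lower, with a median of -0.66 and sums of 6275 and 4109, the brightest being Esam, Emcn and Cdh5. Of 14 macrophage markers, the 13 above the floor on both arrays were all lower, with a median of -0.50, and Itgam was above it in the control array only. The sums over all 14 were 10110 and 7123, and the brightest were Lyz2, C1qb and C1qa. Smooth muscle markers, mostly genes of the contractile apparatus such as Acta2, Mylk and Tagln, were higher in 9 of the 10 above the floor on both arrays. Their median was 0.40, and the sums over all 12 were 13344 and 17820. The exception among those 10 was Des, at -0.15, which is in the pericyte list as well. No pericyte, endothelial, macrophage or smooth muscle marker was under the floor on both arrays. Natural killer and T cell markers were higher in 9 of the 11 above the floor on both arrays, with a median of 0.61. Among the other members tied to leukocytes above, Rgs1 had a ratio of 0.05 and Gnai2 had ratios of -0.17 and -0.32. In bulk RNA, fewer cells of a type and less RNA per cell cannot be told apart, and the part of these cell types in the values of the 5 genes was not tested.

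**Figure D3:**
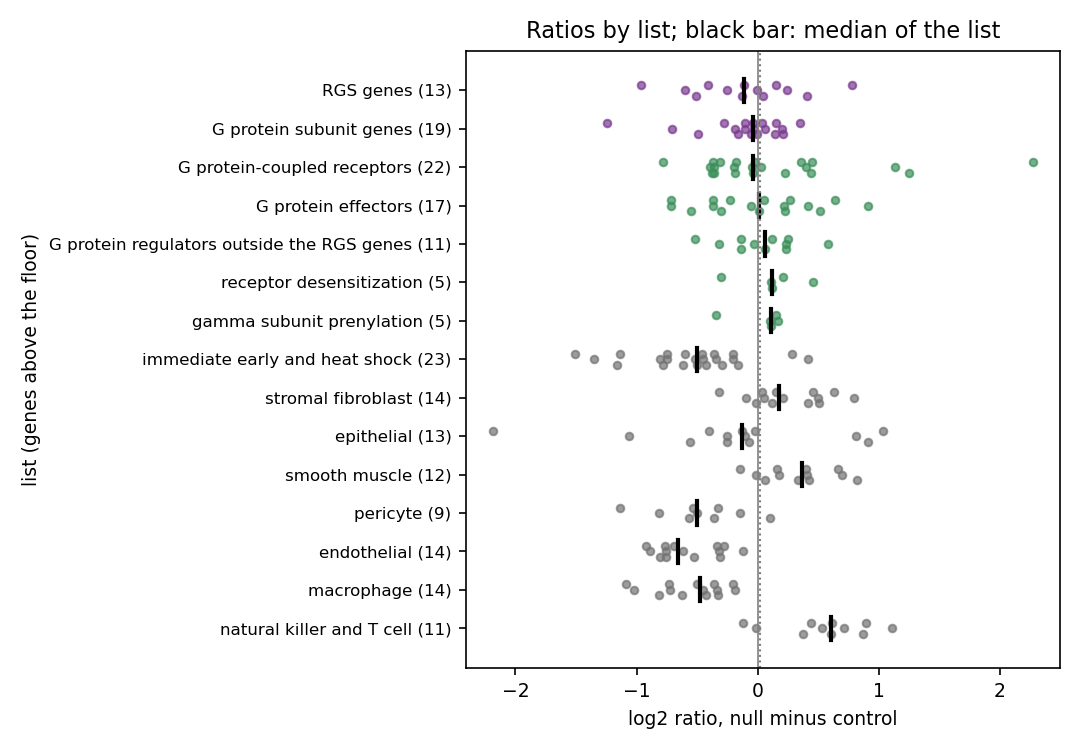
Log2 ratio (null minus control) of each gene above the floor on at least 1 array, by list, with the number of genes in parentheses; black bars are medians and the dotted line is the median of all genes, 0.02. RGS and subunit genes centre near 0, with medians of -0.11 and -0.04, as do receptors and effectors. Over the RGS genes above the floor on both arrays, which leaves out Rgs11, the median was -0.06. Pericyte, endothelial, macrophage and immediate early genes lie mostly below 0 and smooth muscle and natural killer genes mostly above.

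Upstream of the G proteins, 37 of a list of 46 uterine, vascular and immune G protein-coupled receptors were on the array under 1 gene symbol. The endothelin receptor Ednra was not among them, and the oxytocin receptor Oxtr was under the floor on both arrays (16.1 and 29.8). Of the 37, 22 were above the floor, 20 of them on both arrays. Of those 20, 8 had positive and 12 negative ratios, and the median was -0.04. Past 2-fold, 3 of the 22 receptors differed, all higher, where 1.59% of all genes above the floor were. P2ry14, the receptor for UDP-glucose, went from 116 to 561 (4.83-fold). Lpar3, the lysophosphatidic acid receptor needed for embryo spacing, went from 120 to 284 (2.37-fold). Pth1r, the receptor of parathyroid hormone and its related protein, went from 260 to 572 (2.20-fold). Lpar3 signals mainly through Gi and Gq class proteins, P2ry14 mainly through Gi, and Pth1r through Gs and Gq. Agtr1a, the angiotensin II receptor of mural cells, was 1.72-fold lower, from 109 to 63.3. These receptor differences were larger than any among the alpha and beta subunits.

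Downstream, 17 of 24 effector genes were above the floor, 0 of them past 2-fold, with 9 positive and 8 negative ratios and a median of 0.01. Adenylyl cyclases went in both directions: Adcy5 from 62.7 to 118 (a ratio of 0.91) and Adcy1 from 136 to 212 (0.64), but Adcy4 from 128 to 78.0 (-0.72). The phospholipase gene Plcb4 went from 182 to 111 (-0.72) and Plcb3 from 176 to 235 (0.41). The proteins that switch receptors off were close to level, with 5 of 7 receptor kinase and arrestin genes above the floor, a median of 0.11, and the widest ratios at Grk3 (0.46) and Grk5 (-0.30). Of 15 other G protein regulators 10 were above the floor on both arrays, with a median of 0.01. Axin2, which has an RGS domain but acts in Wnt signalling, had 0.58 and Pdcl, a chaperone of beta-gamma assembly, had -0.52. The 5 genes of gamma subunit prenylation, the lipid attachment step, had a median of 0.11, with Pggt1b, which adds the geranylgeranyl group that Gng12 carries, at -0.35 and Icmt at 0.17.

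The 19 genes under the floor had signals between 0.418 and 29.6, which does not show that they were silent. They were Rgs6, Rgs7, Rgs8, Rgs13, Rgs18 and Rgs20; the alpha subunit genes Gnal, Gnao1, Gnaz, Gna15, Gnat1 and Gnat2, mostly of neurons, sense organs and blood cells; Gnb3; the gamma subunit genes Gng3, Gng4, Gng8, Gng13 and Gngt1; and the antisense transcript Gnasas1.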

How the data were processed

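RNA pools of uterine stromal cells were hybridized to Affymetrix 3' arrays, 1 array for each genotype. The values deposited by the authors are intensities on a linear scale, which the submitters' processing notes credit to MAS5 and to Affymetrix Expression Console 1; the background and scaling settings are not given in the sources used here. The mean trimmed by 2% at each end was 150.001 on each array, so the signals had been scaled to a common level. MAS5 subtracts mismatch signal, which makes ratios between small signals unstable.

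Of 45101 probe sets, 64 were controls, 34945 had 1 gene symbol in the platform annotation, 932 several and 9160 none, and those with 1 symbol were used. The Entrez IDs of all 51 member genes were in the RefSeq table of GRCm38.p6, and 0 symbols differed. Signals were turned to log2 values without further scaling, with a floor at the 50th percentile of each array, in Python 3.11.15 with pandas 2.3.3 and numpy 2.4.6. Each gene was read from the probe set that was brightest on average over both arrays. With 1 array per group no test was possible; genes were counted by size, at 2-fold and 1.5-fold. The code was tested on simulated arrays, in bright genes with changes well past 2-fold and little noise. That test does not bear on calls at 1.5-fold or near the floor. Upstream sequences were found for 37 member genes.

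The members, gene lists, floor and alternatives were chosen with earlier results of these data known. All members are accounted for; genes of the pathway and immediate early lists are named when past 2-fold, otherwise by the 2 largest ratios, and genes of marker lists by their 3 brightest members. Agtr1a, Adcy1, Plcb3 and Plcb4 were named after their values were seen, and the promoters shown were chosen in the same way. Oxtr, Ednra, Itgam, Cspg4 and, among the smooth muscle markers, Des were also named outside these rules. Lists of B cell, neutrophil, platelet and mesothelial markers had 2, 4, 2 and 1 genes above the floor on at least 1 array with medians of -0.35, -0.46, -0.0025 and 0.75, and natural killer and T cell markers had 11 with 0.61. Epithelial markers had a median of -0.13 and stromal markers 0.18. The alternatives were no floor, a floor at the 65th percentile, the median over probe sets, leaving out probe sets that can cross-hybridize, median centring and quantile normalization.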

Additional observations from a re-analysis of the deposited data

How the results depend on the processing

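Counts by size depended mostly on the floor. With no floor, 4 members were past 2-fold higher and 4 lower, and 8 and 9 past 1.5-fold, against 0, 1, 1 and 4 with it; over all genes the counts were 1797 higher and 1772 lower at 2-fold (188 and 213 with the floor) and 3002 and 2967 at 1.5-fold (804 and 819 with it). With the floor at the 65th percentile, 0 members were past 2-fold lower and 2 past 1.5-fold lower, and over all genes 97 and 123 were past 2-fold and 501 and 500 past 1.5-fold. With the median over probe sets, 0 members were past 1.5-fold higher. The members' median stayed between -0.054 and -0.026 in all 6 alternatives, and those of the 5 pathway lists moved by less than the probe noise of 0.29. Of single members, Rgs11 had -1.17 with no floor, Gngt2 and Rgs4 shrank with the higher floor, Gna14 and Rgs3 moved with the median over probe sets, and 0 moved by more than the probe noise under the other 3 alternatives. The 1.5-fold call of Rgs16 was lost under centring and quantile normalization, which left 3 members past 1.5-fold lower. Gnaq and Rgs2 changed sign when arrays were centred or quantile normalized. No paired analysis was possible because there was 1 array per genotype. The number of arrays limits the precision, and ratios of probe sets near the floor carry the least.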
